A study of Mus musculus with 6 samples.

Results

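The insulin-like growth factor (IGF) system was examined in stromal cells of the mouse femur as 10 genes: the ligand genes Igf1 and Igf2, the receptor genes Igf1r and Igf2r, and the binding protein genes Igfbp2, Igfbp3, Igfbp4, Igfbp5, Igfbp6 and Igfbp7. They were taken by symbol from a table of read counts for 17128 genes, and all 10 were present and passed the filter on low counts that left 13926 genes for testing. Messenger RNA was sequenced from cells sorted out of bone and marrow at postnatal day 21, with about 20000 cells per library. Control libraries (n = 3) held GFP+ cells of Cxcl12(GFP/fl); R26R(tdTomato/+) mice, in which GFP replaces one Cxcl12 allele and the other is floxed. The CXCL12-deficient group (n = 3 libraries) was sorted as GFP+tdTomato+ cells from mice with the same alleles and a Col2a1-cre transgene, which is driven by a promoter of cartilage cells and their precursors and acts in the descendants of those cells. All 6 libraries therefore came from mice with a single intact Cxcl12 allele at most, and the sort gate, the transgene and the floxed allele changed together. The question of the series was how loss of the chemokine CXCL12 alters these cells. Whether the libraries of a group stem from different animals is not stated, so p-values measure the spread between libraries, which may be technical.

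IGF1 and IGF2 are secreted peptides that promote growth and survival, and in bone they act on osteoblasts, cartilage cells and their precursors. Both signal through the receptor kinase encoded by Igf1r, whereas the receptor encoded by Igf2r carries IGF2 to the lysosome for breakdown. Outside the cell most IGF is held by binding proteins, which lengthen its life in tissue and restrict its access to the receptor. Proteases such as PAPP-A, which cuts IGFBP4, release it again.

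Each library held between 20133299 and 28009257 counts, and 1 read was worth 0.0357 to 0.0472 CPM (counts scaled to library size, with TMM factors). Cxcl12, the targeted gene, summed over its 4 exon entries, had 3747 ± 112 CPM among controls and 1289 ± 130 CPM among CXCL12-deficient libraries (SD, n = 3 each). This sum does not show which exons the remaining reads cover. Summed over 14 markers of CXCL12-abundant reticular (CAR) cells, the marrow stroma that makes most CXCL12, libraries had 10368 to 13011 CPM among controls and 15772 to 22736 CPM in the CXCL12-deficient group. The 12 neutrophil markers summed to between 15242 and 20889 CPM among controls and to between 2879 and 7084 CPM in the other group, with 11 of 12 called lower, and the 12 endothelial markers to between 109.0 and 176 CPM and between 22.2 and 40.9 CPM, with 6 of 12 called lower. Over all tested genes 3.94% were called lower. Osteoblast markers, 10 genes, overlapped, with 8256 to 28761 CPM in controls, of which replicate 1 was the highest, and 12971 to 19909 CPM among CXCL12-deficient libraries. The sorted cells thus carried the stromal markers of their label together with transcripts of blood and endothelial cells. In bulk samples, fewer cells of a type and less RNA per cell cannot be told apart. The part of these other cells in the IGF results was not tested.

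Igfbp4 was the most abundant transcript of the whole table in 5 of the 6 libraries, and in control replicate 1 it was second. It took 0.904% ± 0.137 of all counts among controls and 1.24% ± 0.191 among CXCL12-deficient ones (SD, n = 3 each). The table lists no Rpl, Rps or mitochondrial genes, so ranks and shares are relative to the other genes. Igfbp4 is located on chromosome 11, plus strand, from 99041244 to 99054392 in GRCm38 (GENCODE M21), the assembly that mm10 denotes. Because of this level, the 100 bases before its RefSeq start site are shown (GRCm38.p6, chr11:99041144-99041243, plus strand, 5′ to 3′), with a TATAAA box in capitals. No base of the window lies in an annotated exon of the gene.
Igfbp4: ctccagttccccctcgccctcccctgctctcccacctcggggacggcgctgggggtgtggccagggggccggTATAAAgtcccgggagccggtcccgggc
The box starts at -28 relative to the start site. RefSeq gives 14 start windows for the 10 genes, and Igfbp4 was the only one with TATAAA on its own strand within 250 bases before a start. Igfbp6 had it on the opposite strand, at -148. Of 32851 such windows over all genes, 12.4% held TATAAA on either strand, and 1.84% held it on the gene's own strand between -35 and -16. The motif was searched after the sequence had been seen, and a match is a description, not a site.

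None of the 10 genes passed edgeR's quasi-likelihood test with Benjamini-Hochberg adjustment over 13926 genes, in which 4.57% of all genes passed an adjusted p of 0.05 (0.639% higher and 3.94% lower in the CXCL12-deficient group). The adjusted p ran from 0.151 for Igfbp2 to 0.988 for Igf2r. At an unadjusted p below 0.05 stood 3 of the 10 (Igfbp2, Igfbp4 and Igfbp5, all with higher means in the CXCL12-deficient libraries), where 18.9% of all tested genes did so in either direction and 7.59% with a higher mean. DESeq2 called 1 of the 10, Igfbp5, against 9.66% of the genes to which it gave an adjusted p (2.27% higher), and limma called 0, both with voom and on the deposited log2 values. The log2 fold change was positive for 9 of the 10, with a median of 0.27, beside a median of 0.028 and a positive share of 52.6% over all tested genes. Divided by the summed CAR cell markers of the library, a scale added after the data were seen, the mean was instead lower in the CXCL12-deficient group for 8 of the 10, all but Igfbp2 and Igfbp5. That divisor was itself higher in every CXCL12-deficient library, so a gene with unchanged CPM comes out lower on this scale. The share of all tested genes that were lower on it was not computed, so this count is not a result about the 10 genes. The groups did not overlap at 2 of the 10, Igfbp4 and Igfbp6, where 25.6% of all tested genes did not overlap.

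**Figure D1:**
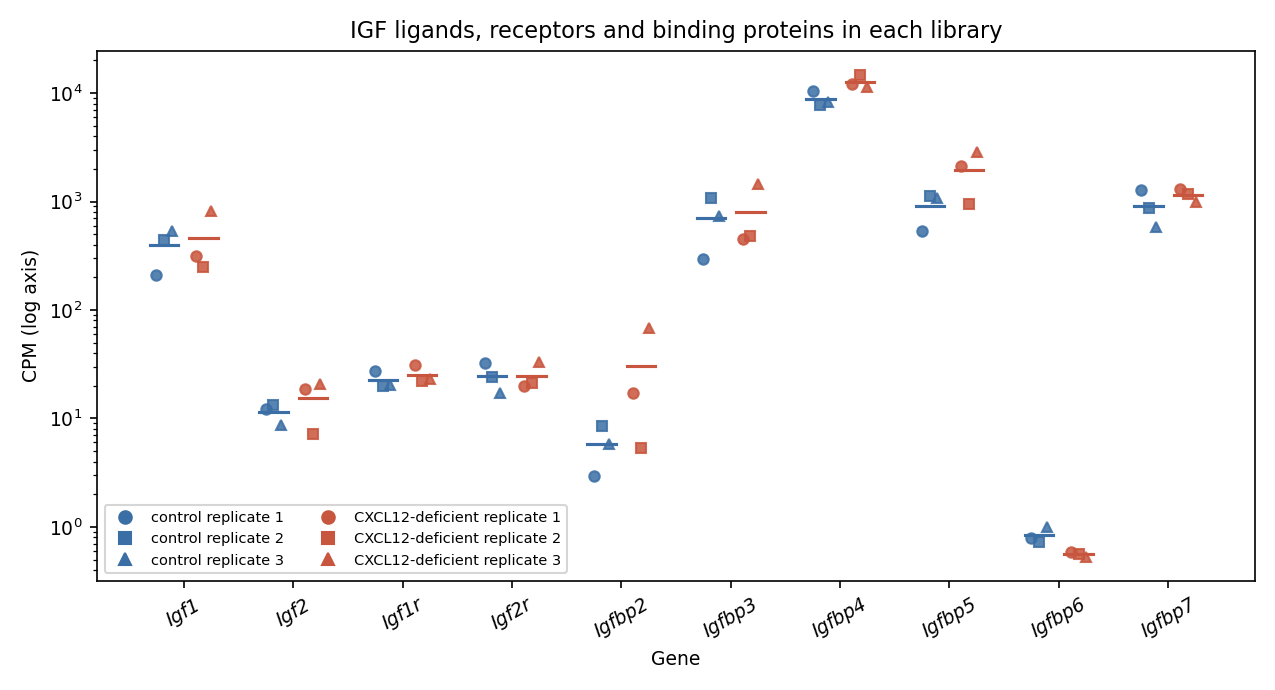
CPM of each gene in each of the 6 libraries on a log axis, with control libraries in blue, CXCL12-deficient libraries in red, 1 marker shape per replicate number and a bar at each group mean. The groups are separate at Igfbp4 and Igfbp6 and overlap at the other 8 genes.

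**Figure D2:**
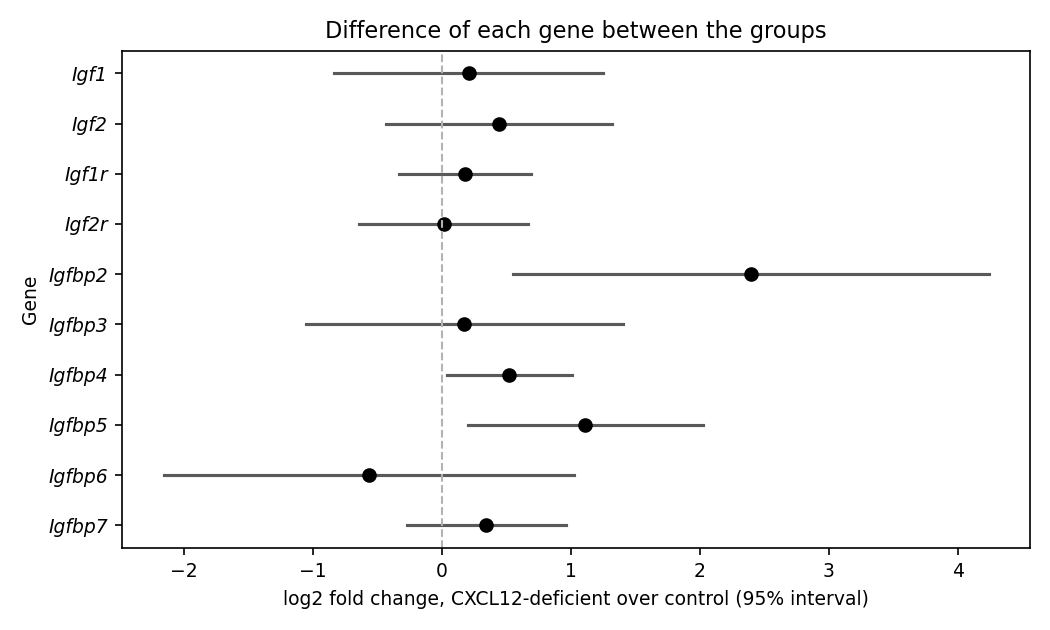
Log2 fold change of each gene, CXCL12-deficient over control, from edgeR, with its 95% interval (unadjusted for the number of genes; n = 3 per group). The intervals of Igfbp2, Igfbp4 and Igfbp5 lie above 0, and none of the 10 genes passed the adjusted threshold.

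Igf1 was the main ligand transcript, with Igf2 far below it. Igf1, on chromosome 10 (87858265 to 87937042, plus strand), had 209.7, 441 and 538 CPM in control replicates 1, 2 and 3 and 315, 247 and 810.1 CPM in CXCL12-deficient replicates 1, 2 and 3. The groups overlapped, with control replicate 1 the lowest and CXCL12-deficient replicate 3 the highest of the 6. The log2 fold change was 0.21 ± 0.46 (SE; adjusted p = 0.860, edgeR), with a 95% interval from -0.84 to 1.25, and it turned to -0.50 without CXCL12-deficient replicate 3 and to -0.12 without control replicate 1. Igf2, an imprinted fetal growth factor gene on chromosome 7 (142650766 to 142666816, minus strand), had 12.2, 13.3 and 8.69 CPM among controls and 18.7, 7.24 and 20.6 CPM among CXCL12-deficient libraries. Its lowest and its highest library were both CXCL12-deficient, and its log2 fold change of 0.44 ± 0.39 did not pass the test (adjusted p = 0.605, edgeR). In GENCODE M21 the gene Gm49394, on the same strand, shares 62.8% of the exon bases of Igf2, and the antisense gene Igf2os shares 98 bases, so how these reads were assigned is uncertain. Compared per kilobase of exon, Igf1 made up 94.4% ± 3.28 of the ligand sum among controls and 93.9% ± 2.80 in CXCL12-deficient libraries (exact permutation p = 0.8, two-sided, where 3 against 3 cannot go below 0.1).

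Both receptor genes were expressed at a low level beside Igf1, Igfbp3, Igfbp4, Igfbp5 and Igfbp7, and neither passed the test. Igf1r, on chromosome 7 (67952827 to 68233668, plus strand), had 27.2, 19.9 and 20.2 CPM among controls and 31.1, 22.1 and 22.9 CPM among CXCL12-deficient libraries, a log2 fold change of 0.18 ± 0.23 (adjusted p = 0.745, edgeR). Igf2r, on chromosome 17 (12682406 to 12769664, minus strand), had 32.2, 24.1 and 17.1 CPM among controls and 19.95, 21.2 and 33.1 CPM among CXCL12-deficient libraries, a log2 fold change of 0.013 ± 0.29 (adjusted p = 0.988, edgeR). The groups overlapped at both receptor genes. The 95% intervals, from -0.34 to 0.69 for Igf1r and from -0.64 to 0.67 for Igf2r, bound the difference to less than 2-fold for each receptor gene in either direction. Igf2r shares its locus with the antisense RNA Airn, which overlaps no Igf2r exon and had 3.64 to 5.07 CPM among controls and 2.66 to 7.33 CPM among CXCL12-deficient libraries (named after its values were seen).

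Igfbp4 encodes a binding protein that mainly restrains IGF action until it is cleaved. It had 10558, 7769 and 8239.6 CPM among controls and 12059.5, 14724 and 11309 CPM among CXCL12-deficient libraries, so that each CXCL12-deficient library was above each control library. The log2 fold change was 0.52 ± 0.21, or 1.43-fold, with a 95% interval from 1.03-fold to 2.01-fold, and missed the threshold (adjusted p = 0.230, edgeR). In the 14 other analyses its adjusted p ran from 0.0630 (DESeq2) to 0.535, and its log2 fold change stayed between 0.40 and 0.65 when 1 library was left out. The nearest profiles over the 6 libraries, by the root mean square difference of centred log2 CPM among 10827 other genes, were those of Fibp (0.055), Agmo (0.059) and Itm2c (0.063), where the median gene was at 0.396. Fibp encodes an intracellular protein that binds fibroblast growth factor 1, Agmo an enzyme that cleaves ether lipids, and Itm2c a membrane protein. With 2 groups of 3, any gene with a like difference between the groups comes near in this measure.

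Igfbp5 and Igfbp2 had the largest log2 fold changes of the family, and also a wide spread between replicates. They are neighbours on chromosome 1, transcribed towards each other with 5457 bases between them (Igfbp2 from 72824503 to 72852474 on the plus strand, Igfbp5 from 72857932 to 72874884 on the minus strand). Igfbp5, a binding protein that also attaches to bone matrix, had 534, 1118 and 1085 CPM among controls and 2109, 955 and 2852 CPM among CXCL12-deficient libraries. Of the CXCL12-deficient libraries, replicates 1 and 3 exceeded every control, while replicate 2 lay within the control range. The log2 fold change of 1.11 ± 0.40, or 2.16-fold, did not pass in edgeR (adjusted p = 0.174) and passed in DESeq2 (1.09, adjusted p = 0.0287), 1 of 14 alternatives, over which its adjusted p reached 0.388. Igfbp2 had 2.96, 8.45 and 5.86 CPM among controls and 17.3, 5.32 and 68.1 CPM among CXCL12-deficient libraries, a 12.8-fold range inside the second group. Its log2 fold change of 2.39 ± 0.81 (adjusted p = 0.151, edgeR) was 0.98 without CXCL12-deficient replicate 3, and it passed only without CXCL12-deficient replicate 2 (2.89, adjusted p = 0.0486, edgeR), a fit in which 0.532% of all genes were called higher. The high mean of Igfbp2 thus came chiefly from a single library.

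Igfbp3, Igfbp7 and Igfbp6 did not pass the test. Igfbp3, which encodes the main IGF carrier of blood plasma, lies on chromosome 11 (7206086 to 7213923, minus strand) and had 298, 1083 and 735 CPM among controls and 452, 481 and 1452 CPM among CXCL12-deficient libraries. Its highest library was again CXCL12-deficient replicate 3 and its lowest control replicate 1. The log2 fold change of 0.17 ± 0.54 (adjusted p = 0.906, edgeR) turned to -0.59 without the former and to -0.21 without the latter. Igfbp7, a related secreted protein with weak affinity for IGFs, lies on chromosome 5 (77349240 to 77408041, minus strand) and had 1277, 875 and 577 CPM among controls and 1313, 1161 and 989 CPM among CXCL12-deficient libraries (log2 fold change 0.34 ± 0.27, adjusted p = 0.565, edgeR). Exons of Polr2b on the other strand share 7.03% of the exon bases of Igfbp7, and the strand setting of the counting is not known. Igfbp6, which prefers IGF2, lies on chromosome 15 (102144362 to 102149511, plus strand) and was barely detected, with 22, 18 and 21 reads among controls and 14, 13 and 12 reads among CXCL12-deficient libraries. As CPM these values did not overlap, yet its log2 fold change of -0.57 ± 0.70 had an adjusted p of 0.732 (edgeR) and a 95% interval from -2.16 to 1.02.

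Placed on 1 scale by dividing CPM by the merged exon length, the 10 genes spanned more than 3 orders of magnitude. In controls Igfbp4 led with 2005 ± 338 CPM per kb (SD, n = 3), followed by Igfbp7 with 752 ± 290.5, Igfbp3 with 225 ± 126, Igfbp5 with 152 ± 54.6 and Igf1 with 40.0 ± 17.1 CPM per kb. Igfbp2, Igf2r, Igf2 and Igf1r followed with 3.12 to 1.34 CPM per kb, and Igfbp6 was last with 0.752 ± 0.124 CPM per kb. Ranges over the control libraries overlapped between neighbours in this order from Igfbp3 to Igfbp5 and from Igfbp2 down to Igf1r, and were separate elsewhere. In CXCL12-deficient libraries Igfbp4 stood at 2875 ± 406, Igfbp7 at 955 ± 134, Igfbp5 at 328 ± 159, Igfbp3 at 254 ± 182 and Igf1 at 46.2 ± 31.0 CPM per kb, with overlap between Igfbp5 and Igfbp3. The places of Igfbp3 and Igfbp5 in the 2 groups were therefore not separated from each other. Igfbp2, at 16.4 ± 18.05 CPM per kb, overlapped both Igf1 above it and Igf2 below it.

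The binding protein genes were compared with each other as shares of their sum per kilobase, which do not depend on how libraries are scaled. Igfbp4 held 63.9% ± 4.93 of the sum among controls and 64.8% ± 6.89 in CXCL12-deficient libraries. Igfbp7 held 23.4% ± 5.91 and 21.6% ± 3.24, Igfbp3 7.53% ± 4.50 and 5.78% ± 4.22, and Igfbp5 5.05% ± 2.26 and 7.49% ± 3.77 (SD, n = 3 each). The summed binding proteins exceeded the summed ligands by a log2 ratio of 6.31 ± 0.868 among controls and 6.69 ± 0.920 in CXCL12-deficient libraries. The library values of that ratio, 7.28, 6.01 and 5.63 among controls and 6.94, 7.46 and 5.67 in CXCL12-deficient libraries, spread more within each group than between the group means. Over the 8 measures tested within the family, the exact two-sided permutation p ran from 0.1, the smallest possible and reached by the share of Igfbp6, to 0.9, and the lowest adjusted p was 0.8.

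**Figure D3:**
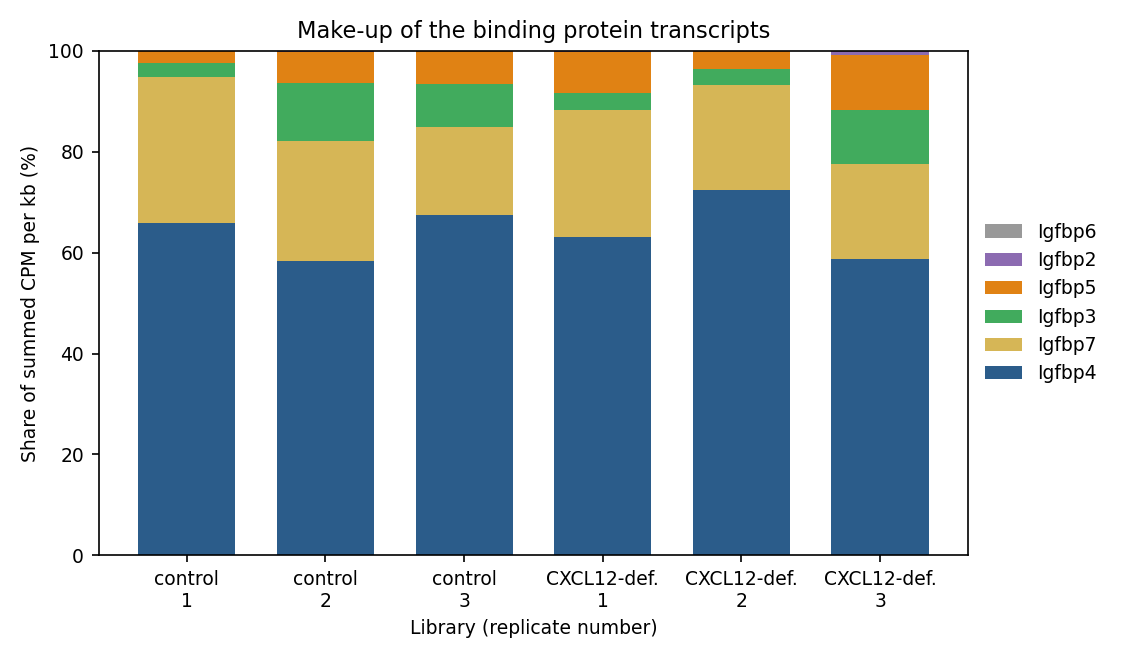
Share of each binding protein gene in the summed CPM per kb of the 6 binding protein genes (y axis, percent), 1 bar per library. Igfbp4 holds 58.3% to 72.3% of each bar and Igfbp7 17.3% to 29.1%, and the ranges of the 2 groups overlap for both.

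Igf1, Igfbp2, Igfbp3 and Igfbp5 shared an extreme library within each group, but not the order of the other libraries. Among controls Igf1 was highest in replicate 3, and Igfbp2, Igfbp3 and Igfbp5 in replicate 2. In the CXCL12-deficient group Igfbp3 was lowest in replicate 1, and Igf1, Igfbp2 and Igfbp5 in replicate 2. Each of the 4 was lowest among controls in replicate 1 and highest among CXCL12-deficient libraries in replicate 3. That arrangement was shown by 4 of the 10 genes and by 11.5% of all tested genes. It was defined from the values of these genes after they had been seen, so the count is not a result about the 10 genes. In controls the highest library exceeded the lowest 2.57-fold at Igf1, 2.85-fold at Igfbp2, 3.64-fold at Igfbp3 and 2.09-fold at Igfbp5, where the median of 10842 genes of at least 5 mean CPM was 1.34-fold and the ninetieth percentile 1.95-fold. In CXCL12-deficient libraries the same ratios were 3.28-fold, 12.8-fold, 3.21-fold and 2.99-fold, beside a median of 1.42-fold and a ninetieth percentile of 2.35-fold. These 4 genes were thus among the more variable of the table inside each group. Igfbp4, Igfbp7, Igf1r and Igf2r had their highest control value in replicate 1 instead. Summed CAR cell markers were lowest in control replicate 1 (10368, 12646 and 13011 CPM) and highest in CXCL12-deficient replicate 3 (20851, 15772 and 22736 CPM), and all 14 had a positive log2 fold change, 2 of them called. Over all tested genes 52.6% were positive and 0.639% were called higher. Summed osteoblast markers were highest in control replicate 1 (28761, 11587 and 8256 CPM) and in CXCL12-deficient replicate 2 (14472, 19909 and 12971 CPM). In its group the latter library was lowest in Igf1, Igf2, Igf1r, Igfbp2 and Igfbp5. Igfbp3 and Igf2r were lowest in CXCL12-deficient replicate 1, and Igfbp4, Igfbp6 and Igfbp7 in CXCL12-deficient replicate 3. Spp1 supplied 48.3% of the osteoblast sum and had 7979, 7964 and 6563 CPM in CXCL12-deficient replicates 1, 2 and 3. Within that group Ibsp was highest in replicate 1, Alpl in replicate 3 and Bglap in replicate 2. The order of the sum was therefore not that of each osteoblast gene. No marker of either list was at 0 in a library. The part of these cell types in the IGF values was not tested.

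**Figure D4:**
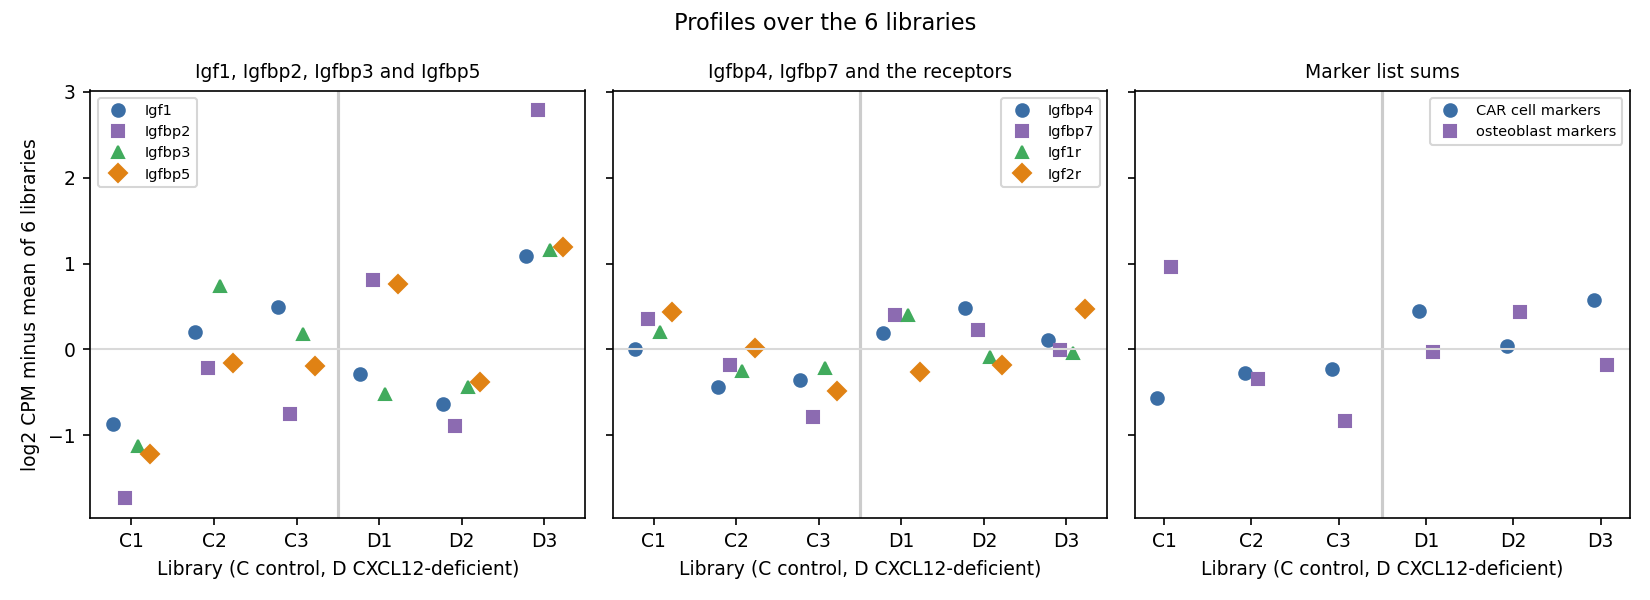
Log2 CPM of 8 of the genes, and of the summed CAR cell and osteoblast markers, minus their mean over the 6 libraries (y axis), for control libraries C1 to C3 and CXCL12-deficient libraries D1 to D3. Igf1, Igfbp2, Igfbp3 and Igfbp5 are low in C1 and high in D3, and osteoblast markers are high in C1.

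Beyond the 10 genes, 1 of 57 tested genes of 5 IGF-related lists was called, beside 4.57% of all genes. It was Igf2bp3, which encodes an RNA-binding protein of IGF2 and other messages. Igf2bp3 had 9.89, 13.5 and 22.3 CPM among controls and 5.33, 4.97 and 3.77 CPM among CXCL12-deficient libraries. Every CXCL12-deficient library was below every control, and the log2 fold change was -1.70 ± 0.36 (adjusted p = 0.0316, edgeR). The call was lost in limma-voom (adjusted p = 0.0559) and in 5 of the 6 refits without a library, where the adjusted p reached 0.159 without control replicate 3, and it was kept without control replicate 1. Markers of B cells, 9 genes, summed to 337, 634 and 941 CPM among controls and 248.8, 189.6 and 84.0 CPM among CXCL12-deficient libraries, with 3 of 9 called lower and none at 0 in a library. Markers of several other cell types were also called lower, with 11 of 12 for neutrophils, 4 of 11 for monocytes and macrophages, 5 of 7 for megakaryocytes, 6 of 12 for endothelium, 5 of 7 for fibroblasts and tendon and 1 of 7 for T and NK cells. Erythroid markers (0 of 9), chondrocyte markers (0 of 10) and pericyte and smooth muscle markers (0 of 10) had none called. Over all tested genes 3.94% were called lower. Sums of B cell, erythroid, and fibroblast and tendon markers had the same order of libraries within each group. Erythroid markers had 1889, 2862 and 3180 CPM among controls and 4727, 4064 and 1417 CPM among CXCL12-deficient libraries. Fibroblast and tendon markers had 93.2, 94.1 and 112 CPM against 29.8, 21.1 and 12.8 CPM. The other lists of this paragraph had other orders. The part of any of these cells in the difference of Igf2bp3 was not tested. Igf2bp1 and Igf2bp2, its relatives, had log2 fold changes of 0.39 ± 0.42 and 0.13 ± 0.22 and were not called (both named after their values were seen).

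The lists of IGF carriers and IGFBP cleavage (10 tested), of the growth hormone receptor pathway (8 tested), of insulin and IGF receptor signalling (25 tested) and of proteins with an IGFBP domain outside the family (7 tested) had no called gene in edgeR, with 2, 2, 3 and 0 genes at an unadjusted p below 0.05. Of all tested genes, 18.9% had such a p and 4.57% were called. DESeq2 called Stc1 and Pik3cb from these 4 lists, both lower in the CXCL12-deficient libraries (named after the values were seen). It called 9.66% of all genes to which it gave an adjusted p. The lists' median log2 fold changes were 0.23, 0.25, 0.093 and 0.37, beside 0.028 over all tested genes. The matrix protease gene Mmp14 had 836 ± 103 CPM among controls and 1029.8 ± 197 CPM among CXCL12-deficient libraries, and the lysosomal protease gene Ctsd had 675 ± 62.7 and 749.6 ± 74.1 CPM. Growth hormone, acting through the receptor gene Ghr, is the main inducer of Igf1 in liver. Ghr had 245.5, 243 and 219 CPM among controls and 399.6, 247 and 424 CPM among CXCL12-deficient libraries, which did not overlap (log2 fold change 0.60 ± 0.21, adjusted p = 0.159, edgeR), and it passed only without CXCL12-deficient replicate 2 (0.80, adjusted p = 0.0362). Socs3, an inhibitor of cytokine receptor signalling, had 891 ± 309 CPM among controls and 1237 ± 241 CPM among CXCL12-deficient libraries, and overlapped. The signalling genes Akt1, a kinase, and Shc1, an adaptor, had 400.5 ± 31.1 and 269 ± 9.42 CPM among controls and 403.5 ± 68.6 and 331 ± 55.5 CPM among CXCL12-deficient libraries. Cyr61 and Ctgf, matrix proteins with an IGFBP domain, were as abundant as 4306 ± 421 and 2269 ± 139 CPM among controls and 4190.1 ± 1469 and 2208 ± 328 CPM among CXCL12-deficient libraries, with adjusted p = 0.959 and 0.938 (edgeR).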

How the data were processed

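The authors deposited whole-number read counts per gene, and regularized log2 values that entered 1 alternative here. Per the submitters' processing notes, the tools and build included mm10, DESeq2, HTSeq, Cuffdiff, Cufflinks, Bowtie2 2.2.1, TopHat2 2.0.13 and FastQC, without roles. Annotation, strand setting and shared reads: not given in the sources. The 4 Cxcl12 exon entries were summed. Counts were filtered (filterByExpr, minimum count 10, minimum total 15), scaled by TMM and compared with edgeR 4.0.16 (R 4.3.3; robust quasi-likelihood F-test), adjusting p over all tested genes by Benjamini-Hochberg, threshold 0.05. SE and 95% intervals came from the F statistic. Steps were tested on simulated counts. Alternatives used other factors and filters, no robust shrinkage, DESeq2 1.42.0, limma 3.58.1 (voom, and the deposited log2 values), and omission of each library. Replicates differed beyond sampling noise (chi-square per degree of freedom 33.6 to 106). Exon lengths and coordinates came from GENCODE M21, which may differ from the authors' annotation. Named are the 10 genes, the targeted gene, the called genes of each list or else its 2 most abundant, and the 3 nearest profiles of the most abundant of the 10. Of 68 listed pathway genes, 2 were not matched. Members and lists were chosen with earlier results of these data known.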

Additional observations from a re-analysis of the deposited data

How the results depend on the processing

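With 3 libraries a group, the 95% intervals of Igf1 and Igfbp3 were wide. The larger log2 fold changes of Igfbp5 (1.11) and Igfbp2 (2.39) were not called by edgeR either. The count of genes called, 637, was 1292 with DESeq2 and between 74 (without control replicate 3) and 577 with 1 library left out (160 without control replicate 2). Leaving out control replicate 1 and CXCL12-deficient replicate 3 together, chosen after seeing the data, gave 592 called genes and 0 of the 10. The count of the 10 IGF genes called, 0, was 1 with DESeq2 (Igfbp5) and 0 to 1 with 1 library left out. The count of pathway genes called, 1, was 3 with DESeq2, 2 with the deposited log2 values and 0 to 2 with 1 library left out. Small log2 fold changes turned sign: Igf2r to -0.016 with the filter of 5 CPM and -0.0071 with limma-voom, and Akt1 to -0.0011 with DESeq2 or its size factors, -0.018 with the filter of 5 CPM and -0.0086 with the deposited log2 values. With 1 library left out, log2 fold changes ran from -0.50 to 0.51 for Igf1, -0.25 to 0.24 for Igf2r, -0.59 to 0.62 for Igfbp3, -0.11 to 0.13 for Akt1, -0.35 to 0.16 for Cyr61 and -0.12 to 0.080 for Ctgf. Differences in share, in percentage points, ran from -4.20 to 0.217 for Igfbp3, -2.87 to 3.89 for Igfbp4, -4.93 to 0.962 for Igfbp7 and -2.28 to 1.10 for Igf1 among ligands, and the share of Igfbp4 differed by -1.30 without length scaling, against 0.906 with it. With the longest transcript as length, 6 of the 10 genes kept their rank in the order of means over all 6 libraries. In that order, which differs from the group orders given above, Igfbp3 and Igfbp5 changed places, as did Igf2 and Igf2r. The cause of these changes was not tested. No paired analysis was possible because the labels give the libraries no replicate numbers: those printed here follow the order of listing, name the libraries and pair none across groups.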

Other observations

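Some values were singled out after they had been seen. Summed over the 6 binding protein genes, libraries had 12671, 10854 and 10644 CPM in controls and 15952, 17327 and 16671 CPM in CXCL12-deficient libraries, 1.46-fold more in the mean (exact permutation p = 0.1, two-sided, the smallest that 3 against 3 allows). Without Igfbp4 the sums were 2113, 3085 and 2405 CPM against 3892, 2603 and 5361 CPM, which overlapped (p = 0.2, exact permutation). Without control replicate 1 and CXCL12-deficient replicate 3 the 2 ratios were 1.55-fold and 1.18-fold. Expressed per 1000 CPM of summed CAR cell markers, Igfbp4 had 1018, 614 and 633 in controls and 578, 934 and 497 in CXCL12-deficient libraries, and Igfbp5 had 51.5, 88.4 and 83.4 against 101, 60.5 and 125. On that scale both genes overlapped between the groups, with an exact permutation p of 0.5 and 0.4. The ratio of the group means, CXCL12-deficient over control, was 0.887 for Igfbp4, 1.29 for Igfbp5, 2.96 for Igfbp2, 0.688 for Igf1, 0.780 for Igf2, 0.593 for Igf2r, 0.679 for Igfbp3 and 0.761 for Igfbp7. Igf1r, with a ratio of 0.678, and Igfbp6, with a ratio of 0.416, were lower without overlap (exact permutation p = 0.1 each, the smallest possible). The CAR marker sum was itself higher without overlap in the CXCL12-deficient libraries, so a gene with steady CPM tends to separate as lower on this scale. The share of all genes that did so was not computed. After adjustment over the 10 genes, the lowest of these permutation p-values was 0.5. The gene Lpl supplied 36.1% of the CAR marker sum.

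In the list of IGF carriers and IGFBP cleavage, where 0 of 10 tested genes were called by edgeR, 3 genes were picked for their values. Pappa, the protease of IGFBP4, had 148, 118 and 115 CPM in controls and 152, 142 and 206 CPM in CXCL12-deficient libraries (log2 fold change 0.39 ± 0.19, adjusted p = 0.301, edgeR). Its relative Pappa2, which cuts IGFBP5 and IGFBP3, had 28, 16 and 25 reads in controls and 1, 0 and 2 reads in CXCL12-deficient libraries (adjusted p = 0.0638, edgeR). Stc1, which encodes stanniocalcin 1, had 44.5, 28.2 and 16.2 CPM in controls and 5.91, 9.77 and 16.6 CPM in CXCL12-deficient libraries, with a log2 fold change of -1.46 ± 0.44 (adjusted p = 0.111, edgeR). Stc1 was called by DESeq2.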
